A study of Oryza sativa with 6 samples.

Results

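The auxin carriers described here are the PIN-FORMED (PIN) efflux proteins and the influx carrier OsAUX1 of rice (Oryza sativa), measured in roots. They were chosen by locus, as the 9 loci OsPIN1a, OsPIN1b, OsPIN1c, OsPIN1d, OsPIN2, OsPIN9, OsPIN10a, OsPIN10b and OsAUX1. The rule used no measured value, but earlier results of these data were known when the loci were chosen. Of these, 8 had a probe set of their own, among 25727 loci that did, and OsPIN1d was not analysed here. OsPIN10a had 2 probe sets and each other locus had 1, which gave 9 probe sets, of which 8 passed the filter on low values and were tested. A synonym that backs the name used was listed in the reference gene annotation for 6 of the 8 loci, but names in the family vary: the OsPIN1b locus is also listed as OsPIN1a and REH1, the OsPIN1c locus also as OsPIN1b, and the OsPIN9 locus also as OsPIN5.

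Auxin is made largely in young shoot tissue and moves from cell to cell by carriers in the plasma membrane. AUX1 brings auxin into a cell, and PIN proteins, which sit mostly on one side of the cell, let it out and so give the flow its direction. In roots, PIN2 and AUX1 take part in the flow through the outer layers that is known from Arabidopsis and rice to serve gravitropism. Root growth and branching under different nitrogen supplies are known to involve this transport.

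The samples were roots of hydroponically grown seedlings, labelled as 14 days old, of the varieties Varadan and Prasanna. After 7 days of germination the seedlings spent 10 days on nitrogen-containing Yoshida medium, a hydroponic solution for rice, and were then moved to that medium either without nitrogen or with supplemented nitrogen. The sum of 7 and 10 days exceeds the stated age, which the labels leave unexplained. For each variety there was 1 array of roots without nitrogen and there were 2 of roots with nitrogen, 6 arrays in all, and every group had shared the earlier growth with nitrogen. The sources used here do not give the time spent without nitrogen. The labels do not say whether replicates were grown as separate cultures, so the p-values reflect only how these samples vary, and that variation may be technical.

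Values are log2 MAS5 signals, and each probe set is compared only with itself across arrays. The 2 deposited tables of these values exchange a pair of columns: what the log2 table names Varadan without nitrogen, the series matrix names Varadan with nitrogen, replicate 1, and the reverse. The log2 table is used below, with the series matrix beside it, and no source says which is right. The nitrate transporter gene OsNRT2.3 (Os01g0704100) stood at 12.49 on the Varadan array without nitrogen and at 12.29 and 7.78 on the Varadan arrays with it, against 11.31 on the Prasanna array without nitrogen and 6.82 and 7.06 on those with it. The library labelled Varadan with nitrogen, replicate 1, therefore read like the arrays without nitrogen for this gene, whichever table is used. The comparison of supplies over both varieties is given with and without it. For the other comparisons, selected differences are given without it. The usable markers of root tissue (QHB, OsSCR1, OsSHR1 and OsCSLD1) lay above the 40th percentile of their array on all 6 arrays. The mean of 3 green tissue markers was also high, at 14.71 on the Varadan array without nitrogen and 13.86 and 12.68 on those with it, and at 13.11 in Prasanna without nitrogen and 12.59 and 12.06 with it; 3 of 3 were highest on the Varadan array without nitrogen and none read below 10.77. In whole roots, fewer cells of a type and less RNA per cell cannot be told apart.

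OsAUX1 (Os01g0856500), the influx carrier, known in rice for its part in lateral root formation and root hair growth, read 10.73 on the Varadan array without nitrogen and 11.85 and 12.08 on the Varadan arrays with nitrogen. In Prasanna it read 11.95 without nitrogen and 12.13 and 12.15 with it. As linear signals these were 1699.7 without nitrogen against 3693 and 4331 with it in Varadan, and 3960.0 against 4475 and 4542 in Prasanna. The Varadan array without nitrogen stood alone: its reading was 1.12 below the next lowest array, while the other 5 arrays spanned 0.30. That array also had the highest median over all probe sets, 6.11 against at most 5.81 on the others. Its difference between the 3' and 5' ends of cyclophilin, a sign of RNA quality, was the highest, at 1.83 against 1.34 to 1.62. It was also highest for a GAPDH pair, at 4.77. The other GAPDH pair stood at 0.57 against up to 4.76, and the actin pairs at 5.15 against up to 5.79 and 5.76 against up to 5.82. The part of these in the carriers' values was not tested. In each variety the array without nitrogen was below both arrays with it, and the Prasanna replicates with nitrogen differed by 0.02, against a median of 0.34 over all tested probe sets.

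Among the efflux carriers, OsPIN1a (Os06g0232300) read 8.16 on the Varadan array without nitrogen and 8.94 and 9.03 on those with it, and 8.95 in Prasanna without nitrogen and 8.60 and 8.99 with it. The groups were apart in Varadan and overlapped in Prasanna. OsPIN1b (Os02g0743400), described in rice under the name REH1 and linked to root emergence, read 9.69 without nitrogen and 10.22 and 10.64 with it in Varadan, and 10.24 without nitrogen and 10.42 and 10.67 with it in Prasanna. Both arrays without nitrogen lay below their own variety's arrays with it, though the Prasanna array without nitrogen was level with the Varadan replicate 1 with nitrogen. OsPIN1c (Os11g0137000) followed another order, at 6.84 without nitrogen and 8.06 and 7.42 with it in Varadan and at 7.21 without nitrogen and 6.30 and 7.08 with it in Prasanna. Here the array without nitrogen was the lowest of its variety in Varadan and the highest in Prasanna. Rice chromosomes 11 and 12 share a recently duplicated segment on which OsPIN1c and OsPIN1d lie, and whether the OsPIN1c probe set also reads OsPIN1d was not tested.

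OsPIN2 (Os06g0660200), the carrier of the outer root layers, read 8.60 on the Varadan array without nitrogen and 9.52 and 10.22 on those with nitrogen. In Prasanna it read 9.65 without nitrogen and 10.10 and 10.68 with it. The array without nitrogen was the lowest of each variety, and the Varadan one lay 0.92 below the next of the 6 arrays, with the other 5 spanning 1.15. OsPIN9 (Os01g0802700), of a PIN group known from monocots and absent from Arabidopsis, read 7.96 without nitrogen and 7.79 and 8.51 with it in Varadan, and 7.78 without nitrogen and 7.49 and 8.42 with it in Prasanna. Its array without nitrogen lay between the replicates with nitrogen in both varieties, and those replicates were 0.73 apart in Varadan and 0.93 in Prasanna.

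OsPIN10a and OsPIN10b are the rice relatives of the Arabidopsis PIN3 group. The probe sets of OsPIN10a (Os01g0643300) disagreed. The brighter one, with the suffix _at, read 5.36 on the Varadan array without nitrogen, just below that array's 40th percentile of 5.42, and 6.37 and 6.65 on those with nitrogen, and 6.10 without nitrogen and 7.08 and 6.64 with it in Prasanna. The other has the suffix _x_at, which in Affymetrix naming marks probes that can match other sequences, and it read 6.28 without nitrogen and 6.30 and 5.56 with it in Varadan, and 6.90 without nitrogen and 5.46 and 2.35 with it in Prasanna, the last below its array's 40th percentile of 4.91. By the first probe set the arrays without nitrogen were the lowest of each variety, and by the second the Prasanna array without nitrogen was the highest of the 6; Pearson's r between the pair over the 6 arrays was -0.42, given as a description. OsPIN10b (Os05g0576900) read 5.45 without nitrogen and 5.13 and 3.97 with it in Varadan, and 4.86 without nitrogen and 0.88 and 5.26 with it in Prasanna. It lay below its array's 40th percentile on 3 of 6 arrays, was not tested, and no difference is drawn from it.

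**Figure D1:**
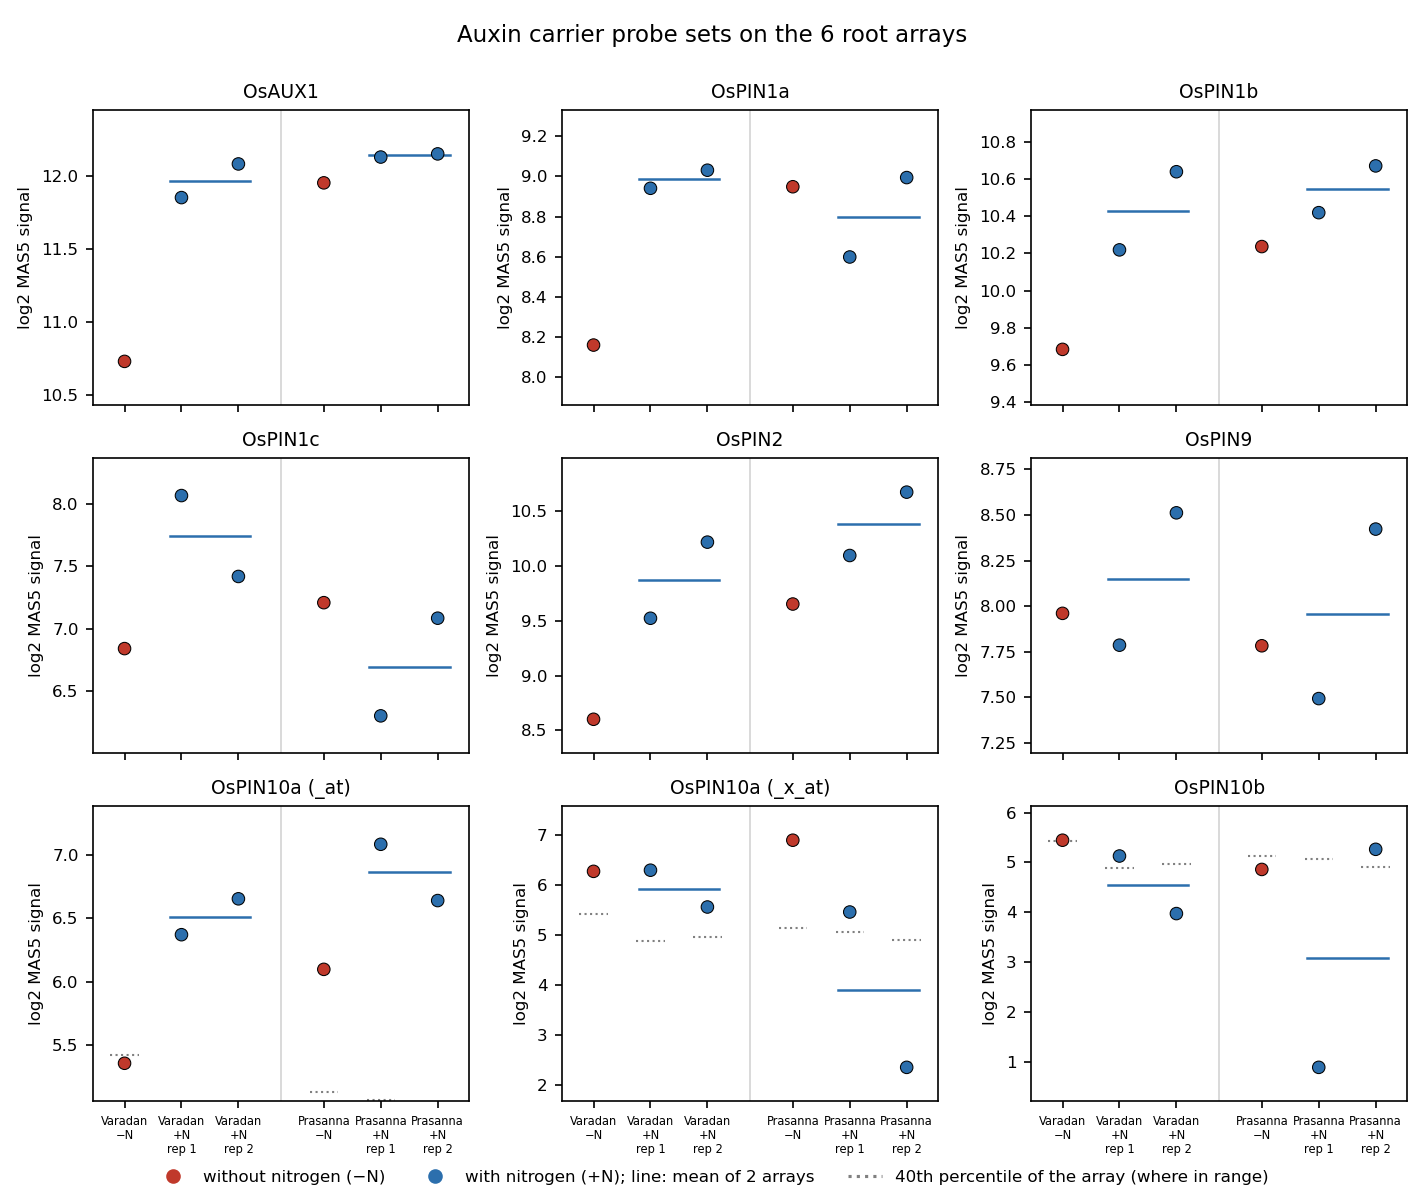
Log2 MAS5 signal (vertical axes, each with its own range) of the 9 auxin carrier probe sets on the 6 arrays, Varadan left and Prasanna right, red without nitrogen and blue with nitrogen; blue lines are means of the 2 arrays with nitrogen and dotted grey marks are the array's 40th percentile. OsAUX1 at 10.73 on the Varadan array without nitrogen lies 1.12 below the next array, and the panels of OsPIN10a show its probe sets in different orders.

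The comparison of supplies asks which carriers differ without nitrogen. Over both varieties, 7 of 8 tested carrier probe sets had a lower mean without nitrogen, against 50.1% of all tested probe sets. None passed the test. OsPIN2 had the lowest p-value: its level without nitrogen was 49.9% of that with nitrogen, a log2 difference of -1.00 ± 0.29 (SE, 2 arrays against 4, adjusted p = 0.141 by limma with Benjamini-Hochberg adjustment), with a 95% interval from -1.70 to -0.30. OsAUX1 stood at 61.1% of its level with nitrogen, a difference of -0.71 ± 0.25 (limma, adjusted p = 0.181), and OsPIN1b at 69.5%, a difference of -0.53 ± 0.22 (limma, adjusted p = 0.227). These 3 had an unadjusted p under 0.05, all lower without nitrogen.

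By limma 0 of 8 member probe sets passed at an adjusted p of 0.05, against 0% of the 34316 probe sets tested. At an unadjusted p of 0.05 it was 3 of 8, against 21.6% of all tested probe sets, and all 3 were lower, against 13.0% lower among all. The median difference of the 8 was -0.43, and that of all tested probe sets was -0.00. The remaining differences were -0.34 ± 0.29 for OsPIN1a, with a 95% interval from -1.03 to 0.36, -0.19 ± 0.46 for OsPIN1c, from -1.29 to 0.91, and -0.18 ± 0.36 for OsPIN9, from -1.04 to 0.68. OsPIN10a stood at -0.96 ± 0.40 by the brighter probe set (limma, adjusted p = 0.231), or -0.93 with its low reading raised to the percentile, and at 1.67 ± 1.06 by the other (limma, adjusted p = 0.390), which became 1.03 with the reading of 2.35 raised to its percentile and 0.81 without that array.

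The call for OsPIN2 turned on the library labelled Varadan with nitrogen, replicate 1. Without that library OsPIN2 fell by 1.11 ± 0.28 on the log2 scale, to 46.2% of its level with nitrogen (limma, adjusted p = 0.0430, 2 arrays against 3). It was then 1 of 8 member probe sets called, against 13.5% of all tested probe sets called and 7.50% called lower, so the members' share was near the background. OsPIN1b stood at -0.58 ± 0.21 (limma, adjusted p = 0.121) and OsAUX1 at -0.69 ± 0.26 (limma, adjusted p = 0.132) without it. With the series matrix in place of the log2 table, the difference of OsPIN2 was -0.31 and that of OsPIN1b was -0.13, while OsAUX1 stood at 0.13, OsPIN1a at 0.25 and OsPIN1c at 0.73; none passed. In the series matrix without its own replicate 1 of Varadan with nitrogen, which leaves out the other of the exchanged arrays, OsPIN2 stood at -0.72 ± 0.23 (limma, adjusted p = 0.0994).

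**Figure D2:**
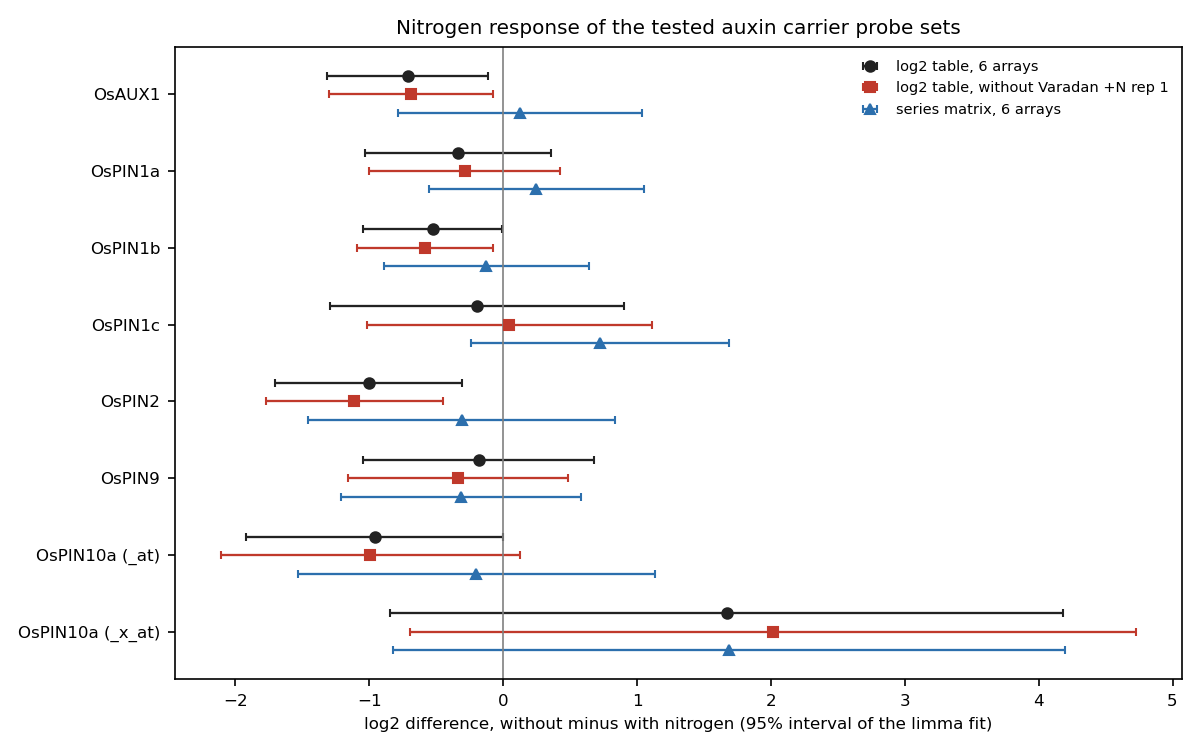
Log2 difference without minus with nitrogen over both varieties (horizontal axis) for the 8 tested carrier probe sets, with points for the limma estimate and bars for its 95% interval: black for the log2 table with 6 arrays, red without the library labelled Varadan with nitrogen, replicate 1, blue for the series matrix. OsPIN2 lies at -1.00, -1.11 and -0.31 in these settings, and OsAUX1 lies below 0 in the log2 table but at 0.13 in the series matrix.

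Within the varieties, 7 of 8 carrier probe sets had a lower mean without nitrogen in Varadan, against 49.2% of all tested probe sets. In Prasanna it was 5 of 8, against 50.8% of all, and no carrier passed in either variety. The count in Varadan rests on the names of the log2 table: there the median difference of the 8 was -0.86. In the series matrix 1 of 8 was lower in Varadan, against 48.6% of all, and the median was 0.36. In Varadan without nitrogen, OsAUX1 was at 42.5% of its level with nitrogen, a difference of -1.23 ± 0.24 (SE, 1 array against 2, unadjusted p = 0.00310, adjusted p = 0.334 by limma). OsPIN2 was at 41.4%, a difference of -1.27 ± 0.44 (limma, adjusted p = 0.368). OsPIN1a stood at -0.83 ± 0.34, OsPIN1b at -0.74 ± 0.32 and OsPIN1c at -0.90 ± 0.56, and OsPIN10a, whose reading without nitrogen was not taken as above background, was lower by at least 1.09 on the log2 scale by its brighter probe set. Without the library labelled Varadan with nitrogen, replicate 1, the Varadan differences were -1.35 for OsAUX1 and -1.62 for OsPIN2. They were then -0.87 for OsPIN1a, -0.95 for OsPIN1b and -0.58 for OsPIN1c. In Prasanna the differences were -0.19 ± 0.24 for OsAUX1, -0.73 ± 0.44 for OsPIN2 and -0.31 ± 0.32 for OsPIN1b. For OsPIN1a and OsPIN1c they were 0.15 ± 0.34 and 0.51 ± 0.56.

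By limma 0 of 8 members were called in Varadan, against 0% of all tested probe sets, and 2 of 8 had an unadjusted p under 0.05, against 12.8% of all. In Prasanna 0 of 8 were called, again against 0%, and 0 of 8 had an unadjusted p under 0.05, against 11.6%. Each lone array without nitrogen is assumed here to vary like the replicates with nitrogen. The array without nitrogen was below both arrays with it in each variety for 4 of 8 member probe sets (OsPIN1b, OsPIN2, OsPIN10a and OsAUX1), against 23.9% of all tested probe sets. The Varadan array without nitrogen was the lowest of the 6 for 5 of 8, the same 4 and OsPIN1a, against 22.2% of all. With the names of the series matrix neither pattern held for any of the 8: below both arrays with nitrogen in each variety were 0 of 8, against 11.8% of all, and lowest of the 6 on the array named Varadan without nitrogen were 0 of 8, against 13.1%.

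A test of the difference between the responses, Varadan minus Prasanna, called 0 of 8 members, against 0% of all tested probe sets. At an unadjusted p of 0.05 it was 1 of 8, against 5.36%. That was OsAUX1, at -1.05 ± 0.34 with a 95% interval from -1.91 to -0.19 (limma, unadjusted p = 0.0253, adjusted p = 0.925). OsPIN1c stood at -1.42 ± 0.79 and OsPIN1a at -0.98 ± 0.48 (limma, adjusted p = 0.964 and 0.942), and OsPIN9 at -0.01 ± 0.79 with an interval from -2.02 to 1.99. Without the library labelled Varadan with nitrogen, replicate 1, the difference of OsAUX1 was -1.16. In the series matrix with all arrays it was 0.63.

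The comparison of varieties asks whether Varadan and Prasanna carry these transcripts at different levels. Over both supplies, OsPIN2 in Varadan was at 61.8% of its level in Prasanna, a difference of -0.69 ± 0.28 (SE, 3 arrays against 3, unadjusted p = 0.0415, adjusted p = 0.432 by limma), and OsAUX1 at 69.6%, a difference of -0.52 ± 0.24 (limma, adjusted p = 0.511). No member passed: 0 of 8 were called, against 1.75% of all tested probe sets, and 1 of 8 had an unadjusted p under 0.05, against 10.7%. Without the library labelled Varadan with nitrogen, replicate 1, OsPIN2 stood at -0.55 and OsAUX1 at -0.56. By limma 0 of 8 members then had an unadjusted p under 0.05, against 13.8% of all. With supplemented nitrogen alone, 2 arrays against 2, OsAUX1 differed by -0.17 ± 0.20 and OsPIN2 by -0.52 ± 0.36, both with an interval across 0. OsPIN1c stood higher in Varadan by 1.05 ± 0.46 there, with an interval from -0.11 to 2.20 (limma, adjusted p = 0.632). Without the library named above, the values with nitrogen were 0.72 for OsPIN1c, -0.06 for OsAUX1 and -0.17 for OsPIN2. In the series matrix they were 0.44 ± 0.51 for OsPIN1c, -0.73 ± 0.47 for OsAUX1 and -0.98 ± 0.58 for OsPIN2. In that comparison, with the names of the log2 table, 0 of 8 members were called, against 0.708% of all, and 0 of 8 had an unadjusted p under 0.05, against 8.48%. Of 5 control pairs that compare the 3' with the 5' end of a transcript, 1 separated the varieties. It was 1 of the 2 GAPDH pairs, which ran from 4.38 to 4.77 in Varadan and from 3.06 to 3.52 in Prasanna, highest on the Varadan array without nitrogen, while the other GAPDH pair ran from -1.28 to 3.24 and from -3.81 to 4.76 and overlapped. Its part in the variety values was not tested.

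OsPIN1b, OsPIN2 and OsAUX1 ordered the 6 arrays almost alike, a relation that does not depend on which table names the Varadan arrays. Over the 6 arrays OsPIN1b and OsPIN2 had a Pearson's r of 0.981 and a Spearman's rho of 1.0 (exact permutation p = 0.00278 for each, 0.0778 after Benjamini-Hochberg adjustment over 28 pairs of members). Without the 2 arrays farthest from the median of OsPIN1b, r was 0.941. OsPIN2 and OsAUX1 had an r of 0.908 and a rho of 0.943 (exact permutation p = 0.00556 and 0.0167, adjusted 0.0778 and 0.156), and r was 0.939 without the 2 farthest arrays. OsPIN1b and OsAUX1 had an r of 0.923 and a rho of 0.943 (exact permutation p = 0.0139 and 0.0167, adjusted 0.130 and 0.156), and r was 0.770 without the 2 farthest arrays. No pair passed the adjustment at 0.05. With 6 arrays the exact permutation p cannot fall below 0.00278, which for a lone pair gives 0.0778 after adjustment over 28 pairs. A lone pair could therefore not pass, however strong its relation, and no conclusion is drawn from that. Arrays of a variety and supply share their group in these values, and too few arrays were at hand for a value within a variety or supply. OsPIN1c ran otherwise, with an r of -0.04 with OsPIN2 and 0.10 with OsAUX1.

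**Figure D3:**
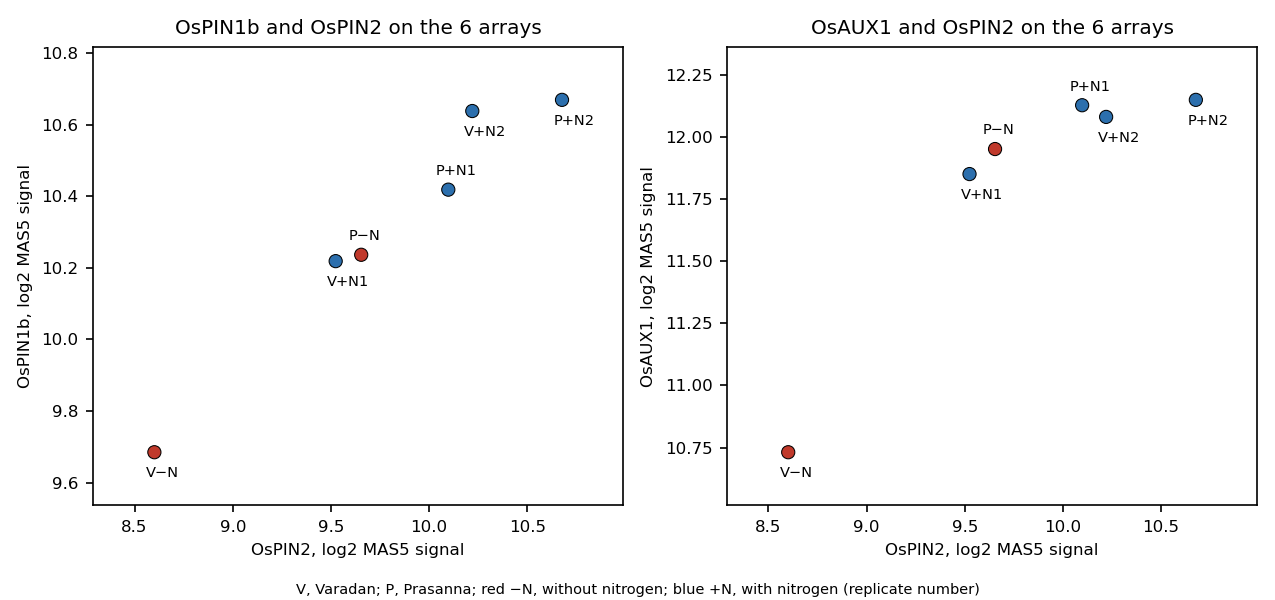
Log2 signal of OsPIN1b (left) and OsAUX1 (right) against that of OsPIN2, with 1 point per array, red without and blue with nitrogen, labelled V for Varadan and P for Prasanna. The Varadan array without nitrogen lies at the lower left of both panels, and the other 5 lie along a line for OsPIN1b and between 11.85 and 12.15 for OsAUX1.

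The loci whose pattern over the 6 arrays was most like each carrier were taken from 969 named loci with an SD of at least 0.5, by Pearson's r, as a description. For OsPIN2 they were OsbZIP83, a transcription factor (r = 0.993), OsSUS1, a sucrose synthase (0.990), and DHOase, a dihydroorotase of pyrimidine synthesis (0.974). For OsPIN1b they were OsbZIP83 (r = 0.991), OsPIN2 (0.981) and OsSUS1 (0.981). For OsAUX1 they were OsCKX3, a cytokinin oxidase (r = 0.994), OsAGO17, an Argonaute protein (0.979), and OsBURP12 (0.979). For OsPIN10a they were OsRR2, a cytokinin response regulator (r = 0.994), OsHAK2, a potassium transporter (0.974), and SPL7 (0.973). For OsPIN1a they were OsCAX1b, a cation exchanger (r = 0.974), IAA8, an auxin response repressor (0.968), and OsSEND-1 (0.965). For OsPIN1c they were GRXC3, a glutaredoxin (r = 0.970), OsEXP29, an expansin (0.937), and OsHAK24, a potassium transporter (0.917). OsPIN9 had the weakest likeness, with OsEXP13 (r = 0.892), COA26 (0.890) and OsPM19L1 (0.881). With 969 loci searched over 6 arrays, high values of r are common. These are 21 entries, in which OsbZIP83 and OsSUS1 each occur for both OsPIN1b and OsPIN2. Of the entries, 5 (OsCKX3, OsAGO17, OsBURP12, SPL7 and OsCAX1b) read below the 40th percentile on the Varadan array without nitrogen. They stood at -0.26 to 4.68 against 5.42, so they were not taken as above background there. All 3 of those named for OsAUX1 are among them.

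Other genes of the auxin pathway were read from lists of loci. By limma none of their 23 tested genes passed over both varieties with 6 arrays, where 6 had an unadjusted p under 0.05, against 21.6% of all tested probe sets. Of the perception and response list, 12 of 15 tested genes had a lower mean without nitrogen, against 50.1% of all tested probe sets. The list's median difference was -0.21, and 4 of its genes had an unadjusted p under 0.05, all lower. These were OsARF12 at -0.96 ± 0.27, OsARF17 at -1.02 ± 0.22, OsARF19 at -1.24 ± 0.24 and OsARF25 at -1.21 ± 0.22, all auxin response factors, the transcription factors that bind the promoters of auxin-responsive genes (limma, adjusted p from 0.123 to 0.136). OsPID, a relative of the Arabidopsis kinase PINOID that phosphorylates PIN proteins, stood at -0.73 ± 0.27 (limma, adjusted p = 0.194). Of 5 genes of auxin synthesis and conjugation, 2 were lower, and OsGH3.8, which joins auxin to amino acids, stood higher without nitrogen at 0.64 ± 0.23 (limma, adjusted p = 0.183). The other carriers OsPIN5a and OsPIN5b stood at -0.13 ± 0.24 and -0.22 ± 0.62. With the series matrix OsARF12 stood at 0.11 ± 0.47, OsARF17 at -0.35 ± 0.45, OsARF19 at -0.67 ± 0.48 and OsARF25 at -0.38 ± 0.51. There 8 of 15 genes of perception and response were lower, against 51.2% of all tested probe sets. OsPID stood at -0.47 ± 0.38 and OsGH3.8 at 0.27 ± 0.35. By limma 0 of the 23 genes had an unadjusted p under 0.05 there, against 6.73% of all.

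OsARF19 read 9.51 on the Varadan array without nitrogen and 10.28 and 11.03 on those with it, and 9.83 in Prasanna without nitrogen and 11.15 and 11.19 with it. Its array without nitrogen was the lowest of each variety. Without the library labelled Varadan with nitrogen, replicate 1, OsARF19 fell by 1.42 ± 0.17 (limma, adjusted p = 0.00447), OsARF25 by 1.30 ± 0.20 (0.0103), OsARF17 by 1.12 ± 0.20 (0.0157) and OsPID by 0.90 ± 0.22 (0.0407) on the log2 scale. These were 3 of 15 genes of perception and response and 1 of 1 of carrier placement. None of the 5 of synthesis and conjugation and 0 of 2 other carriers passed. An unadjusted p under 0.05 was seen for 2 of those 5, 1 higher and 1 lower, and for 0 of those 2. The share over all tested probe sets was 29.4%. Of all tested probe sets, 13.5% were called in this setting and 7.50% were called lower. In the series matrix without its own replicate 1, the differences were -1.09 ± 0.20 for OsARF19, -0.83 ± 0.20 for OsARF25, -0.74 ± 0.17 for OsARF17 and -0.75 ± 0.21 for OsPID (limma, adjusted p = 0.0187, 0.0457, 0.0422 and 0.0678). In that series matrix setting, 8.39% of all tested probe sets were called, and 1419 of 34316 were called lower. In the log2 table without the library labelled Varadan with nitrogen, replicate 1, the varieties differed in OsTAR2, an enzyme of auxin synthesis. OsTAR2 was higher in Varadan by 1.32 ± 0.24 (limma, adjusted p = 0.0415), where 2.39% of all tested probe sets were called. With all 6 arrays it stood at 1.11 ± 0.26 (limma, adjusted p = 0.129), where 1.75% were called.

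Values of markers of particular root cells are given beside these genes. By limma 0 of the 6 markers of dividing cells, 0 of 3 of root tip patterning and 0 of 1 of root hairs passed between the supplies over both varieties with 6 arrays; 3, 0 and 1 had an unadjusted p under 0.05, all lower without nitrogen, and 2 of the 3 green tissue markers did, both higher. Of all tested probe sets, 0% passed there and 21.6% had an unadjusted p under 0.05, with 13.0% both under 0.05 and lower. Without the library labelled Varadan with nitrogen, replicate 1, 1 of 6 dividing cell markers passed, lower, and 2 of 3 green tissue markers, higher. In that setting 13.5% of all tested probe sets were called, with 7.50% called lower and 2044 of 34316 called higher. The mean of 6 genes of dividing cells, such as the MCM helicase subunits and PCNA, was 9.53 on the Varadan array without nitrogen. It was 10.41 and 10.28 on the Varadan arrays with it, and 9.58 in Prasanna without nitrogen and 9.67 and 10.35 with it. Of these genes, 5 of 6 had a lower mean without nitrogen, against 50.1% of all tested probe sets, and none read below 7.61. The mean of 3 root tip patterning genes was 7.62 without nitrogen and 7.70 and 7.80 with it in Varadan. In Prasanna it was 8.02 without nitrogen and 7.19 and 7.31 with it. The mean was therefore slightly lower without nitrogen in Varadan and higher in Prasanna. In Varadan 2 of the 3 genes were lower, while OsSCR1 was higher, at 7.69 without nitrogen against 7.22 and 7.37 with it. OsCSLD1, a root hair gene, read 5.75 without nitrogen and 6.17 and 7.04 with it in Varadan, and 6.48 without nitrogen and 7.82 and 7.85 with it in Prasanna. With the names of the series matrix the Varadan values without nitrogen and with it were 10.41 against 9.53 and 10.28 for the dividing cells, 7.70 against 7.62 and 7.80 for patterning, 6.17 against 5.75 and 7.04 for OsCSLD1 and 13.86 against 14.71 and 12.68 for green tissue, so the order seen in Varadan did not hold there. The part of these markers, and of the green tissue markers above, in the carriers' values was not tested.

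**Figure D4:**
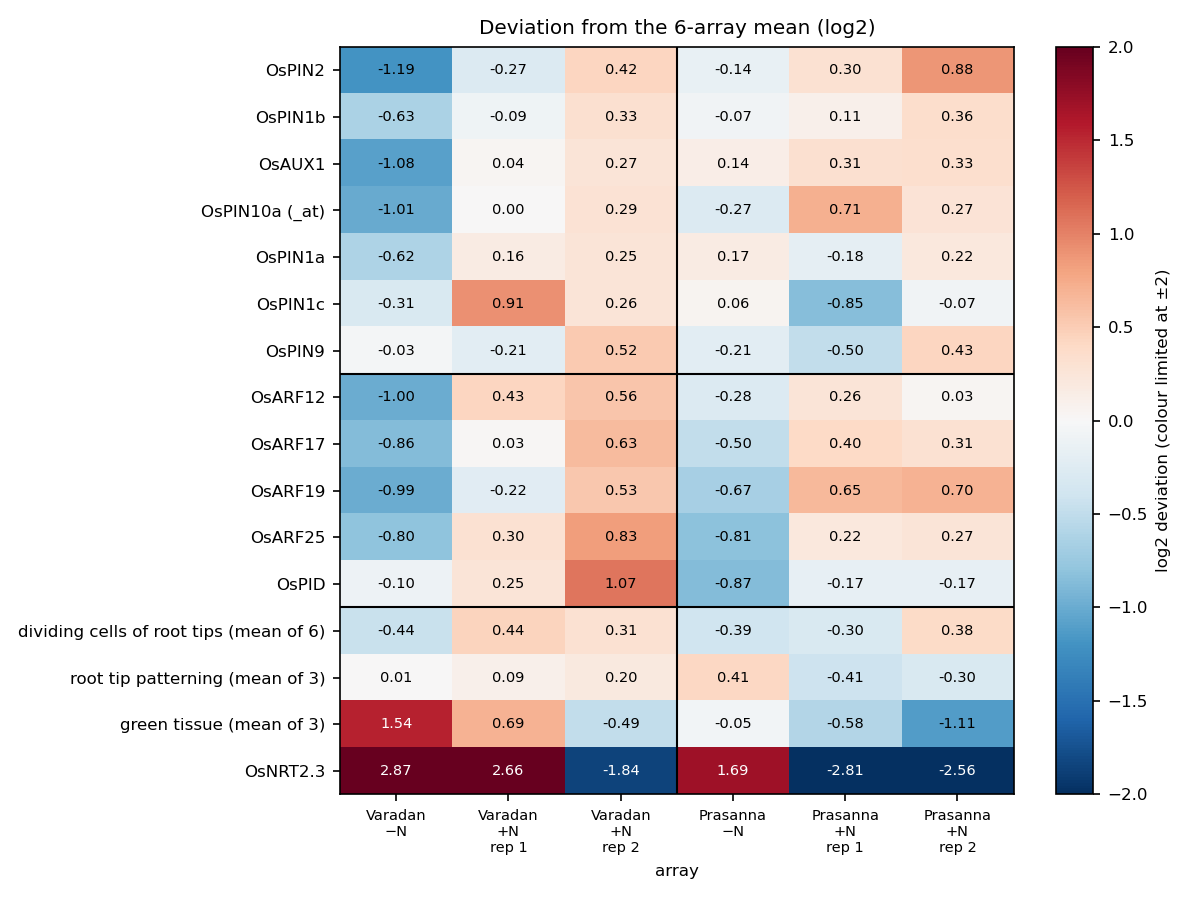
Log2 deviation of each array from the 6-array mean of its row (colour and printed value) for 7 carrier probe sets, 5 other auxin genes, and 3 marker means with OsNRT2.3, with the Varadan arrays left of the Prasanna arrays. OsPIN2, OsAUX1 and OsPIN10a lie at -1.19, -1.08 and -1.01 on the Varadan array without nitrogen, where the green tissue mean lies at 1.54.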

How the data were processed

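Biotin-labelled material from each sample was hybridised to 1 Affymetrix rice array. Per the submitters' processing notes the signals came from MAS5; its version is not given in the sources used here. One table was deposited as log2 signals, and the series matrix was deposited with them as linear intensity. Every array had a trimmed mean of 500 (2% left out at each end), so the arrays were on 1 scale when deposited. Matched by value, 4 columns carried the same name in both tables and the other two were exchanged.

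Of 57381 probe sets, 187 controls were left out, and 34316 with a mean at or above the 40th percentile of probe set means were tested. Readings below an array's 40th percentile (4.89 to 5.42) were not taken as above background. Array medians ran from 5.59 to 6.11, and the replicates with nitrogen correlated at 0.909 in Varadan and 0.925 in Prasanna. Differences were fitted with limma 3.58.1 in R 4.3.3 (eBayes with trend, two-sided, Benjamini-Hochberg over all tested probe sets): an additive model of variety and supply for the shared comparisons, and 1 mean per group for the others. The fit was tested on simulated data with equal noise for every probe set and larger differences than most seen for the carriers. That checks the code only, and says nothing of power or error rates in these data. The comparisons share arrays, whose small number limits precision.

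Gene identifiers came from the platform annotation and names from a reference gene table (assembly ASM3414082v1). Loci of the pathway and marker lists without a supporting synonym were left out. The brighter of several probe sets stood for a locus. The named genes were all members, the 3 named loci most like each tested member, and at most 3 genes in each direction from each auxin list that passed; the other list genes given were chosen after their values were seen. Members and lists were chosen with earlier results of these data known. The alternatives were the series matrix, quantile normalization, no filter, raised low readings, other variance models, other models and leaving out each array.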

Additional observations from a re-analysis of the deposited data

How the results depend on the processing

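No paired analysis was possible because the labels number only the second arrays with nitrogen, and the arrays without nitrogen carry no number. The nitrogen difference of OsPIN2 over both varieties kept its direction in 14 of 14 alternatives (-1.27 to -0.31) and passed in 1. OsPIN1b kept its direction in 14 of 14 and OsAUX1 in 13 of 14. With the series matrix, the difference over both varieties was 0.25 for OsPIN1a, 0.73 for OsPIN1c and 0.13 for OsAUX1. In Varadan it was then 0.057 for OsPIN1b, 0.11 for OsPIN2 and 0.44 for OsAUX1, and the difference of responses of OsAUX1 was 0.63. The cause is the exchange of the Varadan columns. In the series matrix without its own replicate 1 of Varadan with nitrogen, an alternative chosen after seeing the data, OsPIN1a was at 0.048 and OsPIN1c at 0.57. Leaving out each array in turn, OsPIN1a ran from -0.83 to 0.15, OsPIN1c from -0.90 to 0.51 and OsPIN9 from -0.38 to 0.016. OsPIN10a was at 1.67 by its other probe set and 0.36 by the mean of both.

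Of all tested probe sets, 0 were called for the nitrogen response over both varieties, 0 to 4616 with an array left out, and 2880 in the series matrix without its replicate 1 (members 0 to 1). The 601 of the variety difference became 176 without the trend, 339 with group means, 1099 in that series matrix setting, and 239 to 820 with an array left out. The 0 in Prasanna became 818 with only its 3 arrays and 0 to 171 with an array left out, and the 0 in Varadan became 0 to 241. The 243 of the variety difference with nitrogen became 155 in the series matrix, 456 with low readings raised, 50 without the trend, 601 in the additive model, and 0 to 683 with an array left out. Apart from the exchange, the cause was not tested. Signal over background limits OsPIN10a and OsPIN10b.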
